A study of Mus musculus with 9 samples.

Results

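The cytosolic ribosomal protein genes encode the protein subunits of the ribosome that works in the cytoplasm. They were taken by name: protein-coding genes whose symbol is Rpl, Rps or Rplp with a number and an optional letter or x, together with Rpsa and Fau. Kinases named Rps6k, pseudogenes and predicted genes were left out. The rule found 82 genes among the 20287 genes listed in at least 1 library. They comprised 31 genes of the small subunit, 46 genes of the large subunit and 5 paralogs, Rpl3l, Rpl10l, Rpl39l, Rps27l and Rpl32l, whose products resemble a standard subunit. The first 77 are called the standard subunit genes here. All but Rpl32l passed the filter on low values, a mean of at least 0.5 FPKM over all libraries, which left 81 members among 13990 genes tested. Rpl32l was listed in only 2 libraries, both from LIF withdrawal, at 0.39 FPKM in the WT one and 0.18 FPKM in a KO one. Rack1, Rps3a1 and Rpl22l1, which also belong to or resemble ribosomal proteins, lie outside the naming rule and are described apart, as is Rps4l, which has no protein-coding record in the RefSeq table.

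Expression was measured by RNA-seq of total RNA in mouse E14 cells, an embryonic stem cell line from strain 129, either wild type (WT) or Hbxip-/- (knockout, KO). Cells came from pluripotent culture, from culture without the cytokine LIF for 96 h (day 4), or from embryoid bodies, floating clusters of cells that start to differentiate; the sources used here do not give their age. Each of these 3 conditions held 1 WT library and 2 KO libraries, so the 9 libraries formed 6 groups. Neither separate cultures nor clones are named for the KO libraries, so p-values speak only of the spread among these libraries, which may be technical, and each single WT library is taken to have the spread seen within KO pairs.

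Most ribosomal proteins are made in equal numbers and assembled with ribosomal RNA in the nucleolus, and free copies are quickly degraded. Their mRNAs carry a terminal oligopyrimidine (TOP) tract, a C followed by a run of C and T (U in the RNA) at the very start, through which LARP1 and mTORC1 control their translation and stability. Hbxip, now named Lamtor5, is a subunit of Ragulator, which anchors the Rag GTPases on the lysosome where amino acids activate mTORC1.

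The annotated starts of several members show the TOP tract. The sequences below run 5′ to 3′ on the strand of the gene, with 15 bases before and 15 bases from the annotated start on; capitals mark a C at the start followed by at least 4 C or T. They were read from the RefSeq promoter table of build GRCm38.p6 and are shown because this tract is the feature that ties these mRNAs to mTORC1. The deposited tables were made on another build, so no coordinates are given. The first 9 belong to standard subunits and were picked from those that carry the tract. The last 5 are all the paralogs, of which Rpl32l carries the tract and the other 4 lack it. Of the 2 starts listed for Rps27l and for Rpl3l the first is shown.
Fau: tgcgcgcccccacttCTTCCTCTTTCTTga
Rps6: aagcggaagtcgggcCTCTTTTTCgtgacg
Rps10: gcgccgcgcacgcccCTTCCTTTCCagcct
Rps18: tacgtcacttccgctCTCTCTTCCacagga
Rps27: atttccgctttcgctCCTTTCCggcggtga
Rpl15: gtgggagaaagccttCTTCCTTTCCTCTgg
Rpl28: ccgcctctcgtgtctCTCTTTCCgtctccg
Rpl35: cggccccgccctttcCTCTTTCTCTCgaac
Rplp2: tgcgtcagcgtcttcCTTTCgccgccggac
Rpl32l: aaataaaatgaccagCTTCTTCCTTggtgc
Rps27l: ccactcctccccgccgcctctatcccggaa
Rpl39l: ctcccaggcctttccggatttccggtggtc
Rpl10l: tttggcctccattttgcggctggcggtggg
Rpl3l: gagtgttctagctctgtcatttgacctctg

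Of the 82 members, 62 were in that table. Among 67 annotated starts of 57 standard subunit genes, 14 (20.9%) began with the tract exactly at the annotated base, against 2.505% of all 32851 starts in the table. Among 7 starts of the 5 paralogs, 1 (14.29%) did. An annotated start can be some bases off the one used, and a start without the tract says only that these letters are not at that base. The letters CCGGAAG, searched on both strands over the whole 300 bases around the start, were present at 35.82% of the standard subunit starts and at 8.858% of all starts. GGGCGG was present at 61.19% and 35.66%, and TATAAA at 8.955% and 13.62%.

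The members took between 5.87% and 9.72% of a library's counts. The WT share was 6.89% in pluripotent cells, 7.58% without LIF and 9.72% in embryoid bodies. The KO libraries had 8.44% and 8.40% in pluripotent cells, 5.99% and 5.87% without LIF, and 7.65% and 7.56% as embryoid bodies. Embryoid bodies were thus highest and pluripotent cells lowest in WT, whereas pluripotent cells were highest and LIF withdrawal lowest in KO. Relative to WT, the mean KO share was 1.22 times as large in pluripotent cells, 0.782 times without LIF and 0.783 times in embryoid bodies. As a share of summed FPKM these ratios were 1.12, 0.81 and 0.84. The mean KO shares of FPKM in pluripotent cells and embryoid bodies were then close, at 20.4% and 20.1%. Neither share was corrected for the length trend described below. The 2 KO libraries of a condition lay close together, with 74, 68 and 70 of the 77 standard subunit genes within 0.2 of each other on the log2(FPKM + 1) scale in the order of the conditions above. In bulk RNA a change in the number of cells of a type and a change in RNA per cell cannot be told apart.

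**Figure D1:**
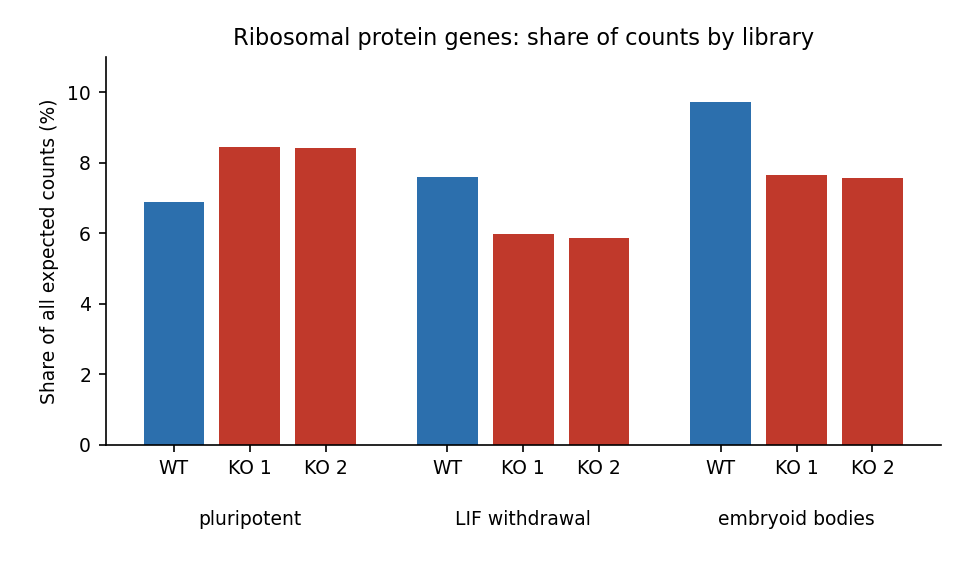
Share of all expected counts (%) that the 82 ribosomal protein genes took in each of the 9 libraries, 1 bar per library, WT in blue and KO in red. The KO bars stand above WT in pluripotent culture (8.44% and 8.40% against 6.89%) and below it after LIF withdrawal and in embryoid bodies.

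Library totals were alike, from 10147301 to 10863866 expected counts. Hbxip itself was at 38.5 to 41.8 FPKM in the WT libraries and at 15.5 to 31.0 FPKM in the KO libraries, so the knockout is taken from the labels. The pluripotency factor Pou5f1, 1 of 8 stem cell markers read, was at 648 to 895 FPKM in every library, but the 8 did not move alike. In WT, Nanog, Zfp42, Esrrb and Tdgf1 were lower after LIF withdrawal and in embryoid bodies than in pluripotent culture. Sox2, Dppa5a and Utf1 were highest in embryoid bodies among the WT libraries. Esrrb was at 186 FPKM in WT pluripotent cells and at 69.5 and 64.5 FPKM in the other WT libraries, against 172 to 230 FPKM in KO. The summed level of 4 primitive streak markers (T, Mixl1, Eomes and Wnt3) was 47.0 FPKM after LIF withdrawal and 67.2 FPKM in embryoid bodies of WT, against 3.66 to 15.4 FPKM in the other 7 libraries. Of 7 fibroblast or feeder markers, Col3a1, Postn, Lum and Dcn were below 0.5 FPKM in every library; their summed level, most of it Thy1, ran from 6.06 to 36.3 FPKM. The 2 KO pluripotent libraries stood apart in how counts depended on gene length, a property given with the results it touches.

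Per base of mRNA the standard subunit genes were among the most abundant transcripts, with a median of 1351 FPKM over their means in the 9 libraries, and 49 of 77 had a mean of at least 1000 FPKM. The highest mean belonged to Rpl23a, a large-subunit protein at the exit of the nascent chain, at 2962 FPKM. The lowest belonged to Rps15a at 46.2 FPKM and, on the large subunit, Rpl30 at 84.6 FPKM. FPKM divides by the deposited length, and Rps15a has the longest one of the family, 5158 bases, against a median of 708 bases. The counts of 16 members, among them Rps15a, Rpl30, Rplp0, Rplp2, Rps3, Rps19 and Rps20, were not whole in any of the 9 libraries, as happens where reads are divided between similar copies, so their levels are less certain. The counts of 51 members were whole throughout.

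**Figure D2:**
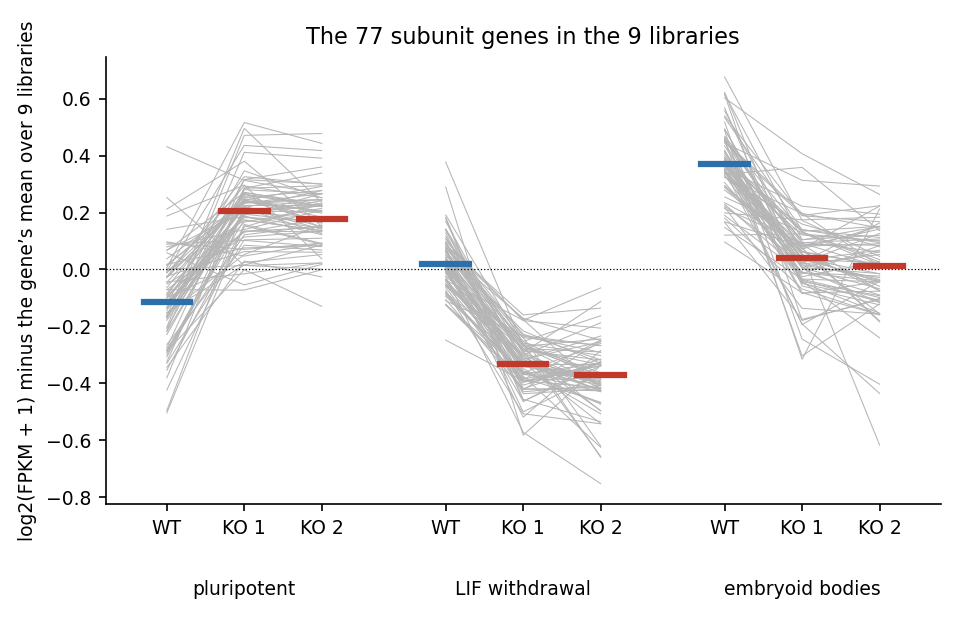
Level of each of the 77 standard subunit genes in the 9 libraries, as log2(FPKM + 1) minus the mean of that gene over the 9 libraries. Each grey line is 1 gene within a condition and each bar the median of the 77 genes, blue for WT and red for KO. After LIF withdrawal all 77 genes are lower in both KO libraries than in WT, as are 48.05% of all genes tested.

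The first comparison asked how the family differed with Hbxip genotype in pluripotent culture. Here it was higher in KO. By edgeR's quasi-likelihood test 63 of 81 members rose, where 25.5% of all genes tested rose, and 0 members fell (26.3% of all genes fell), also at an unadjusted p below 0.05 or with DESeq2 or limma. The median log2 fold change of the members was 0.43, and that of all genes tested was -0.01. In the small subunit, which reads the mRNA, 30 of 31 genes rose, with a median of 0.54. In the large subunit, which forms the peptide bond, 32 of 46 rose, with a median of 0.35.

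Among small-subunit genes Rps10, a protein of the subunit head, was at 1018 FPKM in WT and at 1514 and 1602 FPKM in KO, a log2 fold change of 0.74 ± 0.09 (standard error; adjusted p = 2.26e-05). Rps19, a subunit mutated in Diamond-Blackfan anemia, was at 504 FPKM in WT and at 799 and 762 FPKM in KO, a log2 fold change of 0.75 ± 0.09 (adjusted p = 2.26e-05). Rpsa, also known as the laminin receptor, was at 1173 FPKM in WT and at 1673 and 1697 FPKM in KO (0.65 ± 0.09, adjusted p = 6.09e-05). Fau, whose product is a ubiquitin-like protein fused to the small-subunit protein eS30, was at 718 FPKM in WT and at 992 and 928 FPKM in KO, a log2 fold change of 0.54 ± 0.10 (adjusted p = 0.000532). For these 4 genes both KO libraries lay well above the WT library. Rps6, the protein phosphorylated by the S6 kinases downstream of mTORC1, did not pass the test: it was at 1359 FPKM in WT and at 1357 and 1426 FPKM in KO (0.16 ± 0.09, adjusted p = 0.145).

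Among large-subunit genes Rplp1, which forms the acidic stalk with Rplp0 and Rplp2 and recruits elongation factors to the ribosome, was at 1699 FPKM in WT and at 2711 and 2723 FPKM in KO (0.80 ± 0.12, adjusted p = 0.000116). The stalk did not move as a unit. Rplp2 was at 1356 FPKM in WT and at 1565 and 1682 FPKM in KO (0.38 ± 0.09, adjusted p = 0.00433), and Rplp0, the base of the stalk, was at 1967 FPKM in WT and at 1900 and 1960 FPKM in KO (0.10 ± 0.10, adjusted p = 0.431). Rpl11, which with Rpl5 and 5S RNA can bind MDM2 and so link ribosome assembly to p53, was at 1163 FPKM in WT and at 1404 and 1452 FPKM in KO (0.42 ± 0.09, adjusted p = 0.00241). Rpl5 itself was at 677 FPKM in WT and at 691 and 709 FPKM in KO, and did not pass the test (0.17 ± 0.09, adjusted p = 0.112). Fold changes rest on counts scaled by TMM, and FPKM values carry no such scaling; the FPKM of Rplp0 in KO lay slightly below WT while its fold change was above 0. With library totals alone as the scaling, an alternative chosen after seeing the data, the median of all genes moved by more than 0.1, to -0.13, and the median of the members to 0.31, so that the members remained 0.44 above all genes, as with TMM.

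Gene length moved with this difference. The deposited lengths of the standard subunit genes ran from 328 to 5158 bases, 62 of 77 lay below 1100 bases, and the median of the other genes tested was 2686 bases. Among the genes that are not members, short genes as a whole were higher in the KO pluripotent libraries: the smooth trend gave a difference of 0.35 between KO and WT at 700 bases and of -0.12 at 4000 bases. Most of it came from the 2 KO pluripotent libraries, whose trend relative to the mean of the libraries stood at 0.39 and 0.36 at 700 bases, while the other 7 libraries lay between -0.28 and 0.07. With the trend of each library taken out as an offset, the median of the members was 0.09 instead of 0.43, 21 members rose (24.5% of all genes) and 4 fell (24.6%). What produced the trend was not tested. The other libraries carried smaller trends. A shift of short genes in the cells and one in the libraries cannot be told apart.

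**Figure D3:**
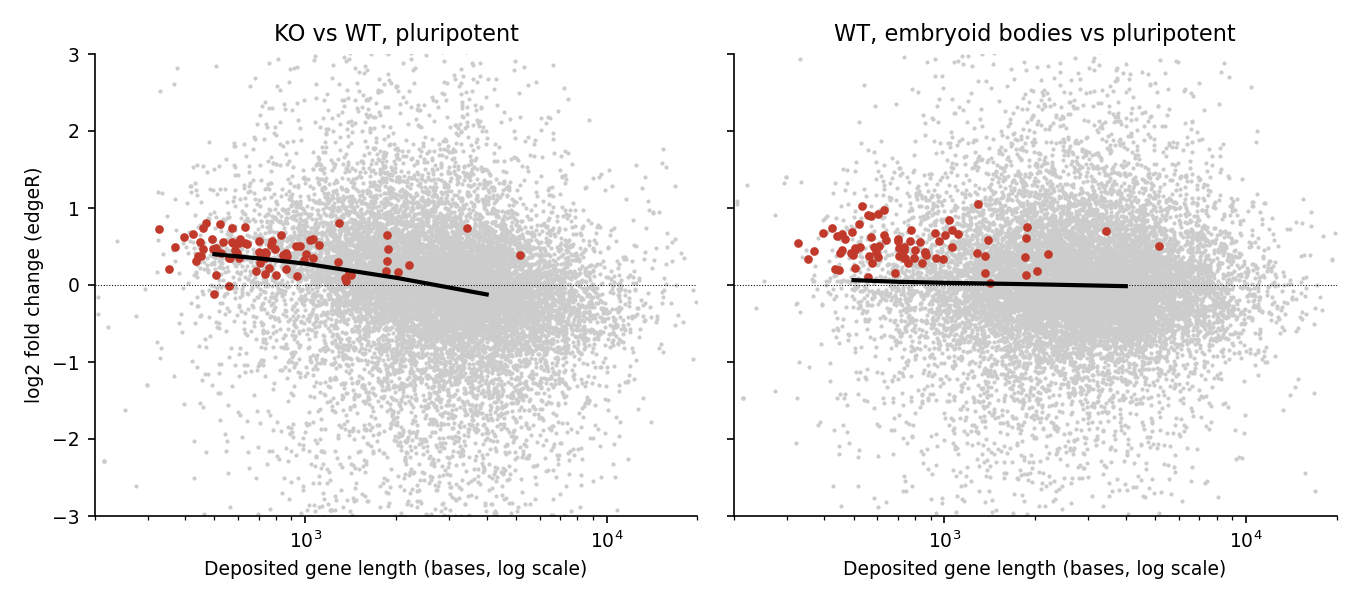
Log2 fold change by edgeR against deposited gene length on a log axis for all genes tested (grey) and the 77 standard subunit genes (red), in KO against WT pluripotent cells (left) and in WT embryoid bodies against WT pluripotent cells (right). The black line is the difference of the length trends of genes outside the family, which falls from 0.40 at 500 bases to -0.12 at 4000 bases on the left and stays near 0 on the right; genes beyond the axis limits are not drawn.

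With the offset, Rpsa kept its call, at 0.53 (adjusted p = 0.000166), as did Rps19 and Rplp1 at 0.39, and Rps10 at 0.36. The calls of Fau, Rplp2 and Rpl11 ended, at 0.16, -0.04 and 0.05. Rps27l, a p53-responsive paralog, Rpl36a, Rpl30 and Rpl38 were the members that fell with the offset, and of these only Rpl38 had a positive value without it (0.21). The members with the longest deposited lengths moved the other way with the offset. Rps20, listed at 3446 bases, had a log2 fold change of 0.74 ± 0.08 without the offset and 0.82 with it. Rps15a, listed at 5158 bases, changed from 0.38 ± 0.08 to 0.59. The deposited lengths of these 2 genes may differ from those of the mRNAs expressed here, which was not tested.

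After LIF withdrawal the direction was opposite. Of 81 members 57 fell in KO relative to WT (17.4% of all genes tested fell), and the 3 that rose (18.4% of all genes rose) were the paralogs Rpl39l, Rpl3l and Rpl10l. The median of the members was -0.29 and that of all genes was 0.00. All 77 standard subunit genes had both KO libraries below WT in FPKM, as had 48.05% of all genes tested. In the small subunit 23 of 31 fell, with a median of -0.26, and in the large subunit 33 of 46, with a median of -0.31. Without KO LIF withdrawal replicate 2 the median of the members was -0.25 and that of all genes was -0.0007.

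The stalk genes were among the most affected here. Rplp0 was at 2388 FPKM in WT and at 1524 and 1420 FPKM in KO, a log2 fold change of -0.64 ± 0.09 (adjusted p = 0.000227). Rplp2 was at 1714 FPKM in WT and at 1100 and 1041 FPKM in KO (-0.62 ± 0.09, adjusted p = 0.000203), and Rplp1 at 2121 FPKM in WT and at 1508 and 1268 FPKM in KO (-0.55 ± 0.11, adjusted p = 0.00199). The KO libraries of all 3 genes lay well below the single WT library. Rpl36a, an X-linked large-subunit gene, was at 1123 FPKM in WT and at 614 and 728 FPKM in KO (-0.69 ± 0.10, adjusted p = 0.000258). On the small subunit Rps14, a protein of the platform, was at 1002 FPKM in WT and at 685 and 605 FPKM in KO (-0.57 ± 0.16, adjusted p = 0.0155), and Rps19 was at 718 FPKM in WT and at 519 and 566 FPKM in KO (-0.35 ± 0.08, adjusted p = 0.00695). Rpsa was at 1344 FPKM in WT and at 1234 and 1185 FPKM in KO and did not pass the test (-0.09 ± 0.08, adjusted p = 0.432), nor did Rps6 (-0.23 ± 0.08, adjusted p = 0.0524).

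The length trend was smaller in this culture, -0.10 at 700 bases. With the offset 33 members fell (18.2% of all genes), the same 3 paralogs rose (17.8% of all genes), and the median of the members was -0.20. The calls of Rplp0 (-0.58), Rpl36a (-0.57), Rplp2 (-0.50), Rps14 (-0.47) and Rplp1 (-0.44) remained, and that of Rps19 ended, at -0.24 (adjusted p = 0.0618).

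In embryoid bodies the family was also lower in KO. Here 61 of 81 members fell (17.7% of all genes) and again Rpl39l, Rpl3l and Rpl10l rose (19.4% of all genes); the median was -0.35, against 0.00 for all genes. In the large subunit 40 of 46 genes fell, with a median of -0.38, and in the small subunit 20 of 31, with a median of -0.28. Both KO libraries lay below WT for 75 of 77 standard subunit genes, against 43.82% of all genes. With the length offset, where the trend was -0.16 at 700 bases, 32 members fell (18.7% of all genes), with a median of -0.20.

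Rpl30, a small protein of the subunit interface, was at 117 FPKM in WT embryoid bodies and at 68.7 and 61.5 FPKM in KO, a log2 fold change of -0.84 ± 0.14 (adjusted p = 0.000588). Rpl36a was at 1415 FPKM in WT and at 893 and 778 FPKM in KO (-0.77 ± 0.10, adjusted p = 0.000109). Rpl36 was at 692 FPKM in WT, but its KO libraries differed from each other, at 488 and 306 FPKM (-0.81 ± 0.19, adjusted p = 0.0061), and DESeq2 did not make this call (adjusted p = 0.0982). Rplp0 was at 2520 FPKM in WT and at 1490 and 1691 FPKM in KO (-0.67 ± 0.09, adjusted p = 0.000159). These 4 calls remained with the length offset, at -0.66, -0.57, -0.60 and -0.58. Rps12, a small-subunit protein of the beak, was at 3671 FPKM in WT and at 2589 and 2371 FPKM in KO, a log2 fold change of -0.57 ± 0.08 (adjusted p = 0.000193) that was -0.38 with the offset. Rps6 was at 2008 FPKM in WT and at 1453 and 1599 FPKM in KO (-0.40 ± 0.08, adjusted p = 0.00266), and was called with the offset too, at -0.32. Rps19, at 974 FPKM in WT against 889 and 877 FPKM in KO, did not pass the test in embryoid bodies (-0.15 ± 0.08, adjusted p = 0.195), and neither did Rpl5, at 759 FPKM in WT against 762 and 749 FPKM in KO (-0.01 ± 0.08, adjusted p = 0.922).

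**Figure D4:**
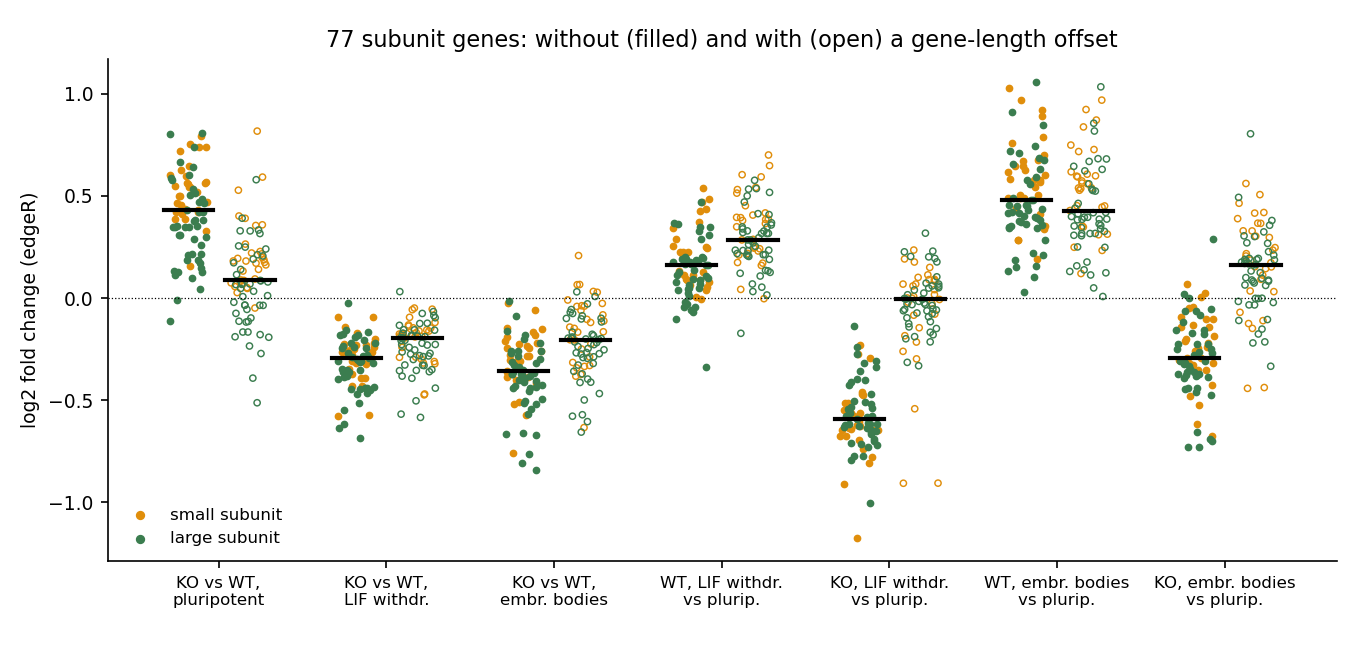
Log2 fold changes by edgeR of the 77 standard subunit genes in 7 comparisons, 1 point per gene, small subunit in orange and large subunit in green; filled points are without and open points with each library's gene-length trend as an offset, and black bars are medians. The medians of KO against WT in pluripotent culture (0.43 and 0.09) and of both KO responses move toward or across 0 with the offset, and that of WT embryoid bodies (0.48 and 0.43) stays.

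How the family responded to differentiation was asked within each genotype. All 4 responses rest on the pluripotent libraries as the reference, so the responses of a genotype share their reference. In WT it was highest in embryoid bodies: 66 of 81 members rose relative to pluripotent culture (19.7% of all genes rose) and 0 fell (18.9% of all genes), with 1 at an unadjusted p below 0.05 and 1 with limma. The median was 0.45, against 0.01 for all genes. All 77 standard subunit genes were higher in the embryoid body library than in the pluripotent one, and for 60 of 77 it was the highest of the 9 libraries. By edgeR all 77 had a positive value, as had 7042 of all 13990 genes. How many of all genes were highest in that library was not counted. The small subunit had 28 of 31 genes higher, with a median of 0.58, and the large subunit 38 of 46, with a median of 0.42. The length trend between these 2 WT libraries was 0.04 at 700 bases, and with the offset 63 members rose (20.4% of all genes), Rpl39l fell (19.0% of all genes) and the median was 0.42.

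Rps12 and Rps19 were among the largest rises in WT embryoid bodies. Rps12 went from 1827 to 3671 FPKM (1.03 ± 0.10, adjusted p = 1.04e-05) and Rps19 from 504 to 974 FPKM (0.97 ± 0.10, adjusted p = 1.78e-05). Rpl23a went from 2362 to 4378 FPKM, the highest level of any member in any library (0.91 ± 0.11, adjusted p = 6.67e-05). Rps6 went from 1359 to 2008 FPKM (0.58 ± 0.10, adjusted p = 0.000683) and Rpsa from 1173 to 1773 FPKM (0.62 ± 0.10, adjusted p = 0.000402). All 5 calls remained with the length offset, at 0.56 to 0.97. Members without a call included Rpl4, the smallest change of the standard subunits at 0.03, Rpl3 at 0.15 ± 0.10 and Rpl5 at 0.18 ± 0.10; Rpl3 is the protein nearest the peptidyl transferase center. The primitive streak markers rose in the same WT library, and their part in this result was not tested.

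After LIF withdrawal the WT change was smaller. Only 9 members rose (11.6% of all genes), the paralog Rpl39l alone fell (8.90% of all genes), and the median was 0.14, against 0.00 for all genes. Rps19 went from 504 to 718 FPKM (0.54 ± 0.10, adjusted p = 0.00248), Rps10 from 1018 to 1395 FPKM (0.48 ± 0.10, adjusted p = 0.0042) and Rps3, a protein of the mRNA entry channel, from 429 to 584 FPKM (0.47 ± 0.10, adjusted p = 0.0046). The count of rises was near the share of all genes. Of the 9, 7 were small-subunit genes, whereas with the length offset 19 rises were in each subunit. The trend with length ran the other way here, -0.16 at 700 bases, and with the offset 38 members rose (11.4% of all genes) and Rpl39l fell (9.03%), with a median of 0.28. In FPKM, 64 of 77 standard subunit genes stood in the order embryoid bodies, LIF withdrawal, pluripotent culture from high to low in WT. The share of all genes in this order was not determined.

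In KO the response was a fall. After LIF withdrawal 78 of 81 members fell (29.0% of all genes) and 0 rose (30.2% of all genes), also at an unadjusted p below 0.05 or with DESeq2 or limma; the median was -0.59, against 0.00 for all genes. For all 77 standard subunit genes both KO libraries after LIF withdrawal lay below both KO pluripotent libraries. How many of all genes had this order was not counted. By edgeR all 77 had a negative value, as had 6984 of all 13990 genes. Rps14 went from 1459 and 1386 FPKM to 685 and 605 FPKM (-1.18 ± 0.14, adjusted p = 1.45e-05). Rplp1 went from 2711 and 2723 FPKM to 1508 and 1268 FPKM (-1.003 ± 0.092, adjusted p = 2.19e-06). The length trend between these groups was -0.60 at 700 bases, the size of the fall of the family. With the offset 13 members fell (24.7% of all genes), 10 rose (25.1% of all genes), and the median was -0.01; Rps14 was then at -0.54 (adjusted p = 0.00587) and Rplp1 at -0.31 (adjusted p = 0.00716). The 2 members with the longest deposited lengths, Rps20 and Rps15a, were at -0.78 and -0.54 without the offset and both at -0.91 with it.

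In KO embryoid bodies 58 members were lower than in KO pluripotent cells (30.0% of all genes) and 2, Rpl23a and the paralog Rpl10l, were higher (31.0% of all genes), with a median of -0.29. Rpl30 went from 102 and 98.3 FPKM to 68.7 and 61.5 FPKM (-0.73 ± 0.12, adjusted p = 0.000214). Rpl23a went from 2881 and 2634 FPKM to 3821 and 3460 FPKM (0.29 ± 0.08, adjusted p = 0.00636); its call ended without KO pluripotent replicate 2 (adjusted p = 0.0745) or KO embryoid body replicate 1 (adjusted p = 0.0776). The direction of the family turned with the length offset: the trend was -0.47 at 700 bases, and with it taken out 36 members rose (27.9% of all genes) and 5 fell (29.0% of all genes), with a median of 0.16. Rpl23a was then at 0.80, Rps19 at 0.56 and Rps27 at 0.33, all called. With library totals alone as the scaling the median of all genes was 0.11 and that of the members -0.19.

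The difference of the responses, KO minus WT, was tested as an interaction. For LIF withdrawal 73 of 81 members had a lower response in KO (14.9% of all genes) and 0 a higher one (17.5% of all genes; 0 with DESeq2 or limma), with 1 at an unadjusted p below 0.05, with a median of -0.73. For embryoid bodies 75 had a lower response (19.5% of all genes) and 1, Rpl10l, a higher one (22.4% of all genes), with a median of -0.76; with library totals alone the medians were -0.64 for the members and 0.16 for all genes. With the length offset the medians were -0.31 and -0.27, with 36 lower and 2 higher after LIF withdrawal (13.7% and 14.0% of all genes) and 31 lower and 1 higher in embryoid bodies (17.8% of all genes in either direction). Rplp1 had the largest difference for LIF withdrawal, -1.35 ± 0.16 (adjusted p = 8.98e-05), and Rpl36 for embryoid bodies, -1.47 ± 0.28 (adjusted p = 0.00148). With the offset they were -0.83 and -0.84, both called. Rpl3 did not pass either test, at -0.07 ± 0.12 and -0.21 ± 0.12, nor did Rpl5 for embryoid bodies, at -0.18 ± 0.12.

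Averaged over the 3 conditions few members were called between genotypes. This average joins opposite differences, with member medians of 0.43 in pluripotent culture, -0.29 without LIF and -0.35 in embryoid bodies. Its spread also holds the variation of the genotype difference between cultures, a common coefficient of 18.1% against 6.5% in the group fit. A low count of calls here therefore does not mean that the genotypes were alike within a culture. Of 81 members 3 rose (13.3% of all genes) and 2 fell (13.8%), with a median of -0.08 against -0.02 for all genes. The 3 were the paralogs Rpl39l, Rpl3l and Rpl10l, and the 2 were the paralog Rps27l and Rpl36a. Rpl36a was at -0.53 ± 0.13 (adjusted p = 0.0154), a call that ended without the WT library of LIF withdrawal (adjusted p = 0.0911) or of embryoid bodies (adjusted p = 0.0686). Rps27l, at -0.78 ± 0.17 (adjusted p = 0.0102), lost its call without the same libraries (adjusted p = 0.0724 and 0.0506), and both genes lost it with the replicate block. Without the WT library of LIF withdrawal the calls of Rpl3l and Rpl10l ended too, and Rpl39l alone remained called. In an additive fit with the 3 pluripotent libraries left out, chosen after seeing the data, 67 members fell and 3 rose, with a median of -0.32, where 2704 of all 13990 genes fell and 2764 rose. Without the WT pluripotent library 70 fell and 3 rose, where 2906 of all genes fell and 2990 rose.

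Of the paralogs, Rpl39l, a copy of Rpl39 known from male germ cells, was at 30.1 FPKM in WT pluripotent cells and at 179 and 154 FPKM in KO. After LIF withdrawal it was at 13.1 FPKM in WT and at 94.1 and 86.2 FPKM in KO, and in embryoid bodies at 21.6 FPKM in WT and at 102 and 106 FPKM in KO. Every KO library was thus above every WT library. The log2 fold changes were 2.59 ± 0.14 (adjusted p = 6.82e-08), 2.84 ± 0.17 (adjusted p = 1.79e-07) and 2.26 ± 0.15 (adjusted p = 5.68e-07) in the 3 conditions, and 2.27 to 2.93 with the length offset. Its partner Rpl39, a short X-linked protein of the exit tunnel, was at 248 FPKM in WT against 285 and 279 FPKM in KO pluripotent cells, at 274 FPKM in WT against 175 and 193 FPKM in KO after LIF withdrawal, and at 283 FPKM in WT against 240 and 227 FPKM in KO embryoid bodies. Both genes fell from KO pluripotent culture to LIF withdrawal, by 0.92 and 0.65 on the log2 scale; with the length offset Rpl39l was at -0.37 and still called, and Rpl39 at 0.0591 and not called. In WT Rpl39l also fell on LIF withdrawal, by 1.17 (adjusted p = 0.00157), while Rpl39 was at 0.17 and did not pass the test.

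Rpl3l, a copy of Rpl3 known from heart and skeletal muscle, was low everywhere, with 8 to 18 counts in the WT libraries and 22 to 59 in the KO libraries. It was at 0.54 FPKM in WT and at 2.08 and 3.39 FPKM in KO after LIF withdrawal (2.37 ± 0.58, adjusted p = 0.0069), and at 1.11 FPKM in WT and at 4.39 and 3.47 FPKM in KO embryoid bodies (1.95 ± 0.50, adjusted p = 0.00907; 0.0522 with DESeq2). In pluripotent culture it was at 1.44 FPKM in WT and at 1.53 and 3.35 FPKM in KO and did not pass the test (1.04 ± 0.50, adjusted p = 0.101). At these counts the counting error is a large part of the spread. Its partner Rpl3 stayed between 1277 and 1649 FPKM in all libraries and was not called in any comparison by edgeR without the length offset.

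Rpl10l, an intronless copy of the X-linked Rpl10 that serves meiotic cells, was at 30.6 FPKM in WT and at 44.7 and 43.8 FPKM in KO after LIF withdrawal (0.59 ± 0.14, adjusted p = 0.00591). Embryoid bodies held 41.6 FPKM in WT against 63.7 and 70.3 FPKM in KO (0.68 ± 0.13, adjusted p = 0.00179), and in pluripotent culture the groups overlapped, at 42.5 FPKM in WT against 37.5 and 48.9 FPKM in KO. Rpl10 itself went the other way, with 1900 FPKM in WT embryoid bodies against 1414 and 1467 FPKM in KO (-0.40 ± 0.08, adjusted p = 0.00268). Over the 3 conditions the call of Rpl10l (0.47 ± 0.13, adjusted p = 0.0269) ended in 7 of the 9 fits that leave out a library, among others.

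Rps27l, the p53-responsive copy of Rps27, was lower in KO. It was at 208 FPKM in WT and at 149 and 177 FPKM in KO pluripotent cells, at 206 FPKM in WT and at 111 and 81.8 FPKM in KO after LIF withdrawal, and at 239 FPKM in WT and at 125 and 108 FPKM in KO embryoid bodies. Every KO library was below every WT library. The log2 fold changes were -1.03 ± 0.16 after LIF withdrawal (adjusted p = 0.000289) and -1.04 ± 0.15 in embryoid bodies (adjusted p = 0.000242), and -0.93 and -0.85 with the offset. In pluripotent culture the change was -0.23 ± 0.15 (adjusted p = 0.237), and with the offset it was -0.62 (adjusted p = 0.00146). Rps27 was at 1190 FPKM in WT against 1609 and 1479 FPKM in KO pluripotent cells (0.50 ± 0.10, adjusted p = 0.00162) and at 1594 FPKM in WT against 1461 and 1349 FPKM in KO embryoid bodies (-0.19 ± 0.10, adjusted p = 0.165).

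**Figure D5:**
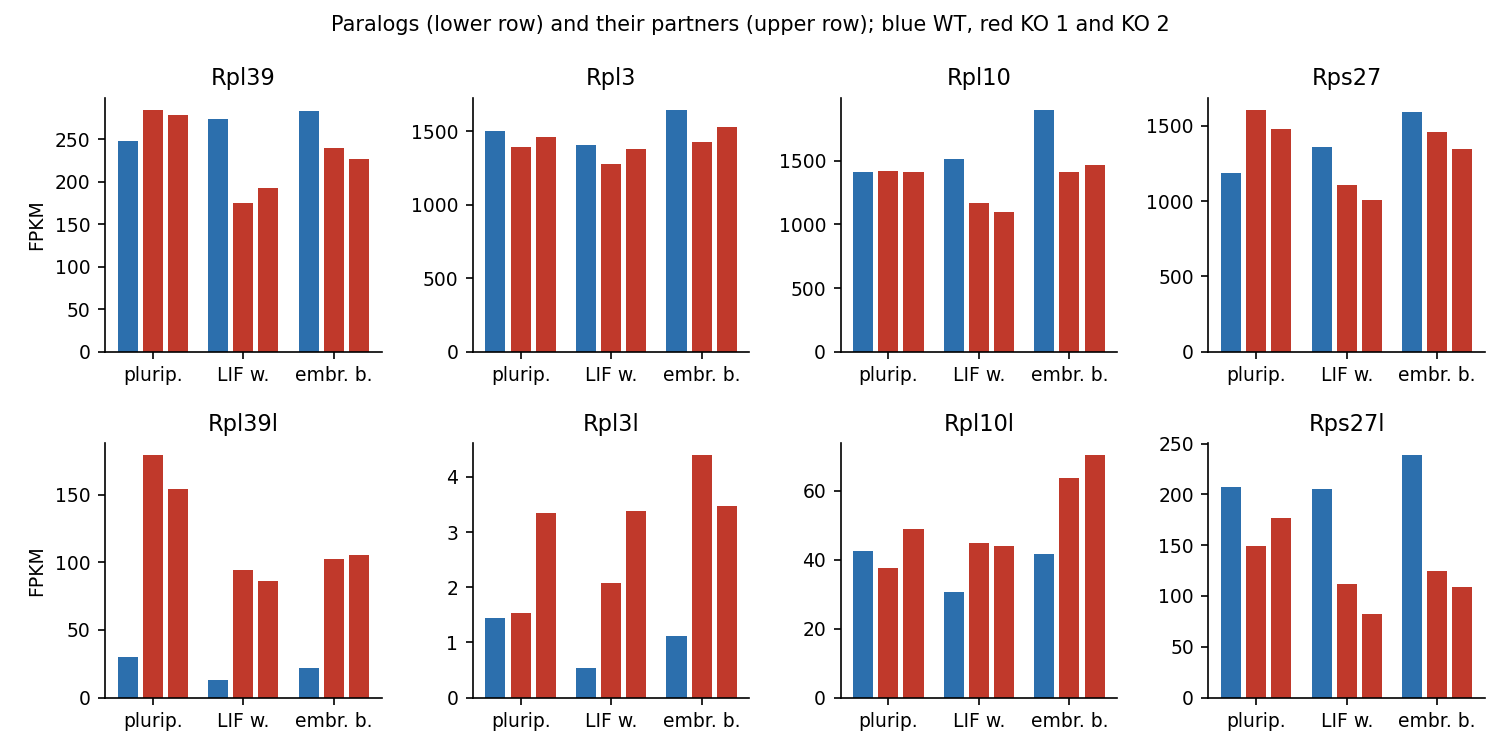
FPKM in the 9 libraries of 4 paralogs (lower panels) and of the standard subunit each resembles (upper panels), WT in blue and the 2 KO libraries in red, each panel on its own linear axis from 0. Rpl39l is at 13.1 to 30.1 FPKM in WT and 86.2 to 179 FPKM in KO, and Rps27l is lower in all 6 KO libraries than in any WT library.

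Of the other pairs, Rps4x, the X-linked standard subunit, was at 1291 FPKM in WT against 1449 and 1522 FPKM in KO pluripotent cells (0.33 ± 0.08, adjusted p = 0.0049; 0.05 and not called with the offset), and did not pass the test in embryoid bodies (-0.06 ± 0.08, adjusted p = 0.586). Rps4l, a related gene without a protein-coding record, was at 422 FPKM in WT against 551 and 550 FPKM in KO pluripotent cells (0.51 ± 0.09, adjusted p = 0.000772; 0.22 with the offset), and at 327 FPKM in WT against 330 and 336 FPKM in KO embryoid bodies. It fell from pluripotent culture to embryoid bodies in WT, by 0.35 (adjusted p = 0.0239), where all 77 standard subunit genes had a positive value. Rpl22, an RNA-binding large-subunit protein, was at 158 FPKM in WT pluripotent cells and 206 FPKM in WT embryoid bodies (0.40 ± 0.09, adjusted p = 0.00489), and its paralog Rpl22l1, which lies outside the naming rule, went from 72.7 to 180 FPKM (1.33 ± 0.13, adjusted p = 1.03e-05). In KO embryoid bodies Rpl22l1 was at 104 and 113 FPKM, lower than in WT (-0.73 ± 0.10, adjusted p = 0.000155). How the ratio within each pair differed between groups was not tested.

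The members resembled each other across libraries, in levels not corrected for the length trend and with no other short genes compared. As a description over 9 libraries that share their scaling, the correlation of a member with the mean of the others, on the log2(FPKM + 1) scale, had a median of 0.92, and 49 of 81 members lay above 0.9. The 3 below 0.5 were the paralogs Rpl3l (-0.22), Rpl39l (-0.10) and Rpl10l (-0.01). Next came Rps27l (0.63), Rpl24 (0.64), Rplp0 (0.65) and Rpl3 (0.66). The 14 standard subunit genes with the tract at an annotated start had medians close to the 43 in the table without it: 0.43 and 0.41 for KO against WT in pluripotent culture, -0.29 and -0.32 after LIF withdrawal, -0.33 and -0.37 in embryoid bodies, and 0.50 and 0.45 for WT embryoid bodies against WT pluripotent cells. As an annotated start can be some bases off, this split does not part mRNAs with the tract from mRNAs without it. Within the standard subunits the Spearman correlation of fold change and length was taken across 77 genes that are not independent. It was -0.25 for KO against WT in pluripotent culture, where the other 13909 genes tested had -0.22. For KO LIF withdrawal against KO pluripotent cells it was 0.47 against 0.42. For WT embryoid bodies against WT pluripotent cells it was -0.06 against -0.02. For KO embryoid bodies against KO pluripotent cells it was 0.243 against 0.315, and for KO against WT in embryoid bodies 0.086 against 0.149. The differences of the responses gave 0.425 against 0.289 for LIF withdrawal and 0.227 against 0.293 for embryoid bodies. The average over conditions gave 0.105 against -0.021. In other comparisons the subunit genes parted further from the other genes. KO against WT after LIF withdrawal gave 0.46 against 0.09, and WT LIF withdrawal against WT pluripotent cells gave -0.18 against 0.19. With the length offset, the KO responses to LIF withdrawal and in embryoid bodies gave -0.39 and -0.36, against -0.01 in both for the other genes.

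Other genes of the translation machinery were read from lists chosen with earlier results known. The shares of all genes that rose and fell were 25.5% and 26.3% in pluripotent culture, 18.4% and 17.4% without LIF, and 19.4% and 17.7% in embryoid bodies, and the lists' counts are to be read against these. Of 6 ribosome components outside the naming rule, 4 rose in KO pluripotent cells. After LIF withdrawal 4 of the 6 fell in KO, and in embryoid bodies 2 fell. Rack1, a scaffold on the small subunit, was at 1160 FPKM in WT and at 1480 and 1498 FPKM in KO pluripotent cells. The medians of the list were 0.41, -0.24 and -0.20 in the 3 conditions. With the length offset they were 0.15, -0.15 and -0.08, with 3 rises and 1 fall in pluripotent culture and 1 fall in each of the other conditions.

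Of 7 other mRNAs known to carry a TOP tract, 3 rose and 1 fell in KO pluripotent cells, 1 fell after LIF withdrawal and 6 fell in embryoid bodies, with medians of 0.22, -0.04 and -0.32. Under the offset the pluripotent median turned to -0.02, with 2 rises and 1 fall, and in embryoid bodies 3 fell, with a median of -0.19. Tpt1, a translationally controlled growth protein, was at 1396 FPKM in WT and at 2080 and 2107 FPKM in KO pluripotent cells, and went from 1396 to 2673 FPKM in WT embryoid bodies. Pabpc1, the poly(A)-binding protein, was at 1339 FPKM in WT and at 997 and 991 FPKM in KO embryoid bodies. Npm1, a nucleolar chaperone of ribosome assembly, was lower in KO than in WT pluripotent cells, at 1619 to 1697 FPKM against 2131 FPKM. Of 6 elongation factors, 2 rose in KO pluripotent cells, and 1 rose and 2 fell after LIF withdrawal; in embryoid bodies 3 fell. Under the offset 1 rose in pluripotent cells. Eef1a1, which delivers aminoacyl-tRNA, was at 6636 FPKM in WT and at 7458 and 7792 FPKM in KO after LIF withdrawal, the single rise there.

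The 32 initiation factors, were near the shares of all genes in KO pluripotent cells, with 10 rising and 10 falling and a median of 0.04; with the length offset 9 rose and 6 fell. After LIF withdrawal 5 rose and 4 fell (median -0.01), and in embryoid bodies 1 rose and 11 fell (median -0.14). Among 10 genes of the mTORC1 arms that act on translation, 4 rose and 2 fell in KO pluripotent cells, 2 rose and 1 fell after LIF withdrawal, and 3 rose and 1 fell in embryoid bodies; with the length offset 2 rose and 1 fell in pluripotent cells. Larp1, the repressor that binds TOP mRNAs, was at 65.6 FPKM in WT and at 70.1 and 67.0 FPKM in KO pluripotent cells, and at 94.1 FPKM in WT and at 60.2 and 61.4 FPKM in KO embryoid bodies. Of 11 chaperones and escorts of ribosomal proteins, 6 rose and 1 fell in KO pluripotent cells, 2 rose and 1 fell after LIF withdrawal, and 1 rose and 3 fell in embryoid bodies. Under the offset 3 rose and 2 fell in pluripotent cells, 4 rose without LIF, and 2 rose and 1 fell in embryoid bodies. Tsr2, the escort of the small-subunit protein eS26, was at 16.3 to 17.8 FPKM in the WT libraries and at 22.8 to 26.0 FPKM in the 6 KO libraries. How many of all genes separated the genotypes in this way was not counted.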

How the data were processed

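Total RNA of 9 samples was sequenced. The submitters' processing notes name Bowtie2 and the build mm8. The quantifier, strand setting and annotation are not given in the sources used here. Per the file headers, the authors deposited for each library a gene ID, a gene length, an expected count and an FPKM value. Between 78.0% and 78.4% of the expected counts in a library were whole numbers. IDs were matched to symbols through RefSeq: 20234 by ID, 9 by accession, and 44 did not match.

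The members and the gene lists were chosen with earlier results of these data known. Expected counts were rounded and fitted with edgeR 4.0.16 (quasi-likelihood, TMM; R 4.3.3) on 13990 genes with a mean of at least 0.5 FPKM. The fit had 6 group means with 3 residual degrees of freedom, from the KO pairs, and contrasts between groups. The average over conditions came from an additive fit with 5, whose spread pools that of the KO pairs with variation of the genotype difference between cultures. p-values were adjusted by Benjamini-Hochberg over all genes tested, with a threshold of 0.05, and the error given is the standard error. "Rose" and "fell" mean past that threshold.

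Gene length was handled by a loess curve per library on log2 length over genes outside the family, used as an offset. Other alternatives were RLE factors, TMM without the members, no filter, DESeq2 1.42.0, limma 3.58.1 on log2(FPKM + 1), a replicate block and leaving out each library. Library totals without TMM and an additive fit without the pluripotent libraries were added after seeing the data. Scripts were tested on simulated data. Values in every library are given for the 3 largest rises and 3 largest falls called in a comparison, the highest and lowest members, Rpsa, Fau, the stalk, Rps6, Rpl5, Rpl11, Rps19 and the paralog pairs; Rps15a and Rps20 are named for their length, and other list genes were named after their values were seen. Some genes that this rule or the lists would name are not reported here.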

Additional observations from a re-analysis of the deposited data

Results flagged for a closer look

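The response to culture differed between KO and WT by a test of the difference itself (edgeR, interaction contrast) for 73 members after LIF withdrawal and 76 in embryoid bodies. Of all 13990 genes, 2444 had a higher and 2079 a lower response in KO for LIF withdrawal, and 3127 a higher and 2727 a lower one for embryoid bodies. With the length offset the members' counts were 38 and 32, and for embryoid bodies Rpl39 turned to 0.0378 and Rps4x to 0.0190. These results were singled out because the 2 genotypes' responses differed under the same contrast. Values below are KO minus WT on the log2 scale.

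For LIF withdrawal the small-subunit genes were Fau at -0.81, Rps14 at -1.17, Rps19 at -1.10, Rps27 at -0.80, Rps4x at -0.55, Rps6 at -0.39 and Rpsa at -0.74. The large-subunit genes were Rpl10 at -0.49, Rpl11 at -0.80, Rpl22 at -0.51, Rpl36 at -1.14, Rpl39 at -0.82 and Rpl5 at -0.41, with the stalk genes Rplp0 at -0.73, Rplp1 at -1.35 and Rplp2 at -1.0. The paralog Rps27l was at -0.80.

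For embryoid bodies the small-subunit genes were Fau at -0.76, Rps19 at -0.90, Rps27 at -0.69, Rps4x at -0.39, Rps6 at -0.56 and Rpsa at -0.83. The large-subunit genes were Rpl10 at -0.53, Rpl11 at -0.87, Rpl22 at -0.46, Rpl36 at -1.47 and Rpl39 at -0.59, with Rplp0 at -0.76, Rplp1 at -1.29 and Rplp2 at -0.69. The paralogs were Rps27l at -0.81 and Rpl10l at 0.54. Both contrasts share the pluripotent libraries, and the gene-length trend of the KO pluripotent libraries enters both.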

How the results depend on the processing

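With the length offset the counts of members called were 25 for KO against WT in pluripotent culture, 36 for the same without LIF and 35 for embryoid bodies. They were 39 for WT LIF withdrawal, 23 for KO LIF withdrawal and 41 for KO embryoid bodies (36 higher and 5 lower, a reversed balance). The genotype differences of the responses had 38 and 32. Over the 3 conditions 2 members were higher and 10 lower, 12 in all, where 14.5% of all genes were higher and 15.6% lower. For the other comparisons the shares of all genes stand with the results above. Named values that changed sign with it were Fau (0.0409 for KO LIF withdrawal, 0.0312 for KO embryoid bodies), Rpl10 (0.20, KO LIF withdrawal), Rpl11 (0.0638, KO embryoid bodies), Rpl39 (0.0591 and 0.18 for the 2 KO responses, -0.11 in pluripotent culture, 0.0378 for the embryoid body difference), Rplp2 (0.0684, KO LIF withdrawal; -0.0361, pluripotent culture), Rps19 (0.0681) and Rps6 (0.0829) for KO LIF withdrawal, Rps27 (0.15 and 0.33 for the 2 KO responses) and Rps4x (0.19, KO LIF withdrawal; 0.0190, embryoid body difference).

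Over the 3 conditions the count of 5 became 8 with library totals only, 6 with limma, 7 with DESeq2 and 70 with the pluripotent libraries left out. Of all 13990 genes, 1584 rose and 2298 fell with library totals only, 1632 and 2232 with limma, and 2074 and 2140 with DESeq2. Leaving out 1 library gave 58 to 63, 33 to 57 and 45 to 65 members for KO against WT in the 3 conditions, 11 to 12 and 66 for the WT responses, 77 to 78 and 45 to 62 for the KO responses, 71 to 75 and 74 to 77 for the differences, and 1 to 73 over the conditions (73 without the WT pluripotent library). Over all genes tested, deviations of same-numbered KO libraries correlated at 0.139 (pluripotent and LIF withdrawal), -0.005 (pluripotent and embryoid bodies) and 0.052 (LIF withdrawal and embryoid bodies). Whether same-numbered libraries share a clone or culture is not in the labels and was not settled by these values. With the replicate block the count was 19 for WT LIF withdrawal (17 higher, 2 lower) and 2 over the conditions. Among all 13990 genes the block gave 2091 higher and 1690 lower for WT LIF withdrawal, and 1257 and 1171 over the conditions. Counts over all genes changed with these settings too, and the cause of the changes was not tested. The ranges from leaving out a library stand without the counts of all genes. They alone do not show a change in the family. After LIF withdrawal the KO against WT median of the members was -0.25 without KO LIF withdrawal replicate 2, against -0.29 with all libraries. In embryoid bodies this median was -0.34 without KO embryoid body replicate 2, against -0.35 with all libraries. With RLE factors or TMM without the members all 129 named results kept their direction and side of the threshold.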
